A study of Mus musculus with 19 samples.

Results

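Among the 1478 YAP peaks called in mouse livers after 7 days of YAP induction, 628 lay at TEAD peaks that were not called in uninduced livers. These peaks were selected on measured values, namely the presence or absence of called peaks in 4 lists. Each member of the set overlapped by at least 1 bp a TEAD peak of the same livers, and overlapped neither a TEAD peak nor a YAP peak of livers without the transgene. The remaining YAP peaks were 731 at TEAD sites that already carried a TEAD peak without induction (pre-bound sites), 104 that overlapped a YAP peak of uninduced livers and 15 without a TEAD peak. On the TEAD side, 33468 of the 38984 TEAD peaks at 7 d were gained by the same criterion, and 32847 of these overlapped no YAP peak.

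The data were ChIP-seq peak lists from livers of C57BL/6 mice that carried the ROSA26-rtTA-IRES-EGFP allele. WT mice lacked the tetYAP transgene and ate doxycycline food for 7 days, and tetYAP mice ate it for 3 days or for 7 days. In the induced mice an albumin-driven Cre restricted the rtTA transactivator, and thus the constitutively active YAP S127A, to hepatocytes. Chromatin was precipitated with the YAP1 antibody 63.7 after crosslinking with DSG and formaldehyde, or with a TEAD antibody after formaldehyde alone. The 19 libraries formed 6 groups of 3, with 4 for TEAD at 7 d, and the authors merged the libraries of each group before calling peaks. The merged libraries held 34260362 to 55032002 tags. With 1 list per group there is no spread between animals, no test between conditions can be made, and all intervals below are 95% intervals that cover counting error over peaks. Whole liver was used, so more occupied cells and more occupancy per cell cannot be told apart.

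YAP is a transcriptional coactivator that the Hippo kinase cascade keeps out of the nucleus. It has no DNA-binding domain of its own and reaches chromatin mainly through the TEAD factors, whose TEA domain reads a short core, GGAATG on one strand and CATTCC on the other. In the adult liver, forced YAP activity is known for hepatocyte proliferation, organ overgrowth and loss of the hepatocyte state in favour of biliary and progenitor features. AP-1, a dimer of Fos and Jun family proteins that binds TGANTCA, often occupies the same enhancers as YAP and TEAD.

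The sequence under the strongest of these peaks is shown first, because the number and spacing of TEAD cores within it are compared further on. Each line gives the protein-coding gene with the nearest transcription start, the mm9 position on the plus strand, and 120 bases centred on the YAP summit. Capitals mark GGAAT or ATTCC, the 5 bases common to the TEAD core and its close variants, and the AP-1 word.
Ncald, chr15:37685537-37685656: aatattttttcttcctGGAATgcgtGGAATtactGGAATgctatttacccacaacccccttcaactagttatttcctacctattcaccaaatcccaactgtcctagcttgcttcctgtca
Exph5, chr9:53133976-53134095: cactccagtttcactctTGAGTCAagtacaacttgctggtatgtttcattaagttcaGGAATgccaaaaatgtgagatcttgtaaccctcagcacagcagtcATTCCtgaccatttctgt
Mrpl36, chr13:73483729-73483848: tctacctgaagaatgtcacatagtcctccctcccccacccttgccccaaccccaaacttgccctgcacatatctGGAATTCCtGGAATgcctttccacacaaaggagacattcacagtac
Speer2, chr16:69791088-69791207: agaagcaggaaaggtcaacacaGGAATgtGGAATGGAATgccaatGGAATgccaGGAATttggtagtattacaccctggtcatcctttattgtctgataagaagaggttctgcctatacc
Gm608, chr16:44217802-44217921: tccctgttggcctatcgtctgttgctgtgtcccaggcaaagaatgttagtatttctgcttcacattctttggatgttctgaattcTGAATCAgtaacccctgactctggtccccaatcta
Ect2, chr3:27054015-27054134: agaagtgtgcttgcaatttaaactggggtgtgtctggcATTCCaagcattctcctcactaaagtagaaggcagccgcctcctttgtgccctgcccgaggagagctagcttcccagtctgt
Ntrk3, chr7:85174398-85174517: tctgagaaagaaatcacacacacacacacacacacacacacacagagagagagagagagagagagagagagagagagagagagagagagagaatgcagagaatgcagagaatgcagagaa
9230112D13Rik, chr14:35345850-35345969: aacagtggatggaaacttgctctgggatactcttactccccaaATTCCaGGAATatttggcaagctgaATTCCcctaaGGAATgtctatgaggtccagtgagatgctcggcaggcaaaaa
In the Ncald window, 3 GGAAT cores on one strand start 9 bases apart from one to the next, and the Mrpl36 and Speer2 windows each hold a pair at this distance. The Ntrk3 window is a run of CA and GA dinucleotides without a core, and the Gm608 window holds an AP-1 word but no core.

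The next windows were the strongest members with paired 6-base cores, GGAATG, separated by 3 bases on the same strand, which is the same 9-base pitch.
Trim24, chr6:37680661-37680780: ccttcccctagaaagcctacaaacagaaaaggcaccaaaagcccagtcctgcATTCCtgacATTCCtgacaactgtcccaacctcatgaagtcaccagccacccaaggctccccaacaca
Gm10295, chr7:78609080-78609199: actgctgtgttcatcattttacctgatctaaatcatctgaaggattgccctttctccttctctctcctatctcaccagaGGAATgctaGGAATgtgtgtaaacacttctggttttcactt
Gm9747, chr1:81714939-81715058: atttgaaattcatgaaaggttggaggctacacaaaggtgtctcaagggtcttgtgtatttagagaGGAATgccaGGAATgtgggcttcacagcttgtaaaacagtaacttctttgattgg

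The following windows belong to the strongest members without a TEAD peak at 3 d, called late members in what follows because TEAD was first called there at 7 d.
Mtnr1b, chr9:15599001-15599120: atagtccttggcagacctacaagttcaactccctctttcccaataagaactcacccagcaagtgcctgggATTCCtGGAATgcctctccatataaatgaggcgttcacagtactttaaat
Tbc1d2b, chr9:90428222-90428341: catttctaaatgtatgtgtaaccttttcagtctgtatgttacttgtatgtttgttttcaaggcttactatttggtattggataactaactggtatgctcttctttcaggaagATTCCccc
Sox9, chr11:112935765-112935884: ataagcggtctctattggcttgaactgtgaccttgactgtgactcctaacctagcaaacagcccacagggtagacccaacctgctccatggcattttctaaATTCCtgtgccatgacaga
The Mtnr1b window carries the word ATTCCTGGAATG, which also occurs in the Mrpl36 window above.

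The strongest late members with an AP-1 word inside the 120 bases are shown for the AP-1 comparison given further on.
Ptprd, chr4:76122436-76122555: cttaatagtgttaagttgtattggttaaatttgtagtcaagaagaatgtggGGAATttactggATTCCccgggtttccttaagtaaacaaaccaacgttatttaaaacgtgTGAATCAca
Tmprss2, chr16:97907617-97907736: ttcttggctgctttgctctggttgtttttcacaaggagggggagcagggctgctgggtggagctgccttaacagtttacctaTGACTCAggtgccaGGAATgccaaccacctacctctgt
Arl4c, chr1:90536067-90536186: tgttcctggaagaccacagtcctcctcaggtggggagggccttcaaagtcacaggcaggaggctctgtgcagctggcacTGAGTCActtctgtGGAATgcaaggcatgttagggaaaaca

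One more promoter member completes the 3 strongest promoter sites, after Gm608 and Ect2 above.
Lrtm2, chr6:119279584-119279703: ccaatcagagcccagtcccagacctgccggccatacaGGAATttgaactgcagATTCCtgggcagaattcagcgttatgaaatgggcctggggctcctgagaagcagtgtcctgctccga

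The strength of the peaks was examined first. Fold enrichment, the ratio of fragments at the summit to the local background, had a median of 5.68 for YAP across the 628 members, with quartiles of 5.02 and 6.77 and a range of 1.80 to 16.2. At the 731 pre-bound sites the median YAP fold was 6.11, so the strength of YAP binding in the 2 classes overlapped broadly. TEAD fold at 7 d had a median of 26.6 in members, 33.9 at pre-bound sites and 6.83 at gained TEAD peaks without YAP. Antibody and crosslinking differed between YAP and TEAD, so their folds are not on one scale. In all, 485 of 628 members (77.2%) lay in the top 10% of the TEAD 7 d list by fold, and 8 lay in its lower 50%. Among these 8, the member at the Sfi1 promoter had the lowest values of the set, 1.80-fold for YAP and 2.69-fold for TEAD. TEAD fold exceeded the median of the WT TEAD list in 627 of 628 members. These values took part in the choice of the members and are given as a description.

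The strongest member by −log10 p-value was an intronic site of Ncald, a neuronal calcium sensor gene, at chr15:37685338-37685880. It had 16.2-fold YAP enrichment, and its TEAD enrichment was 22.5-fold at 3 d and 65.7-fold at 7 d. It ranked 6 among all YAP peaks at 7 d, behind sites outside the set. Exph5, which encodes a Rab27 effector, held the next member in an intron at chr9:53133796-53134281. YAP enrichment there was 13.9-fold, and TEAD enrichment was 37.1-fold at 3 d and 63.3-fold at 7 d. An intergenic member near Mrpl36, a mitochondrial ribosomal protein gene, reached 14.6-fold for YAP at chr13:73483586-73484238. The intergenic member nearest to Speer2, at chr16:69790794-69791359, reached 14.4-fold. Both had strong TEAD signal, 63.2-fold and 61.5-fold at 7 d.

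At the promoter of Ect2, a gene required for cytokinesis, the member at chr3:27053848-27054322 reached 12.9-fold for YAP. Its summit lay 1275 bp upstream of the start, within an intron of 1700125G22Rik. The promoter member of Gm608 had its summit in an exon, 365 bp upstream of a protein-coding start, and 11.6-fold YAP enrichment. TEAD enrichment at Gm608 went from 11.7-fold at 3 d to 44.6-fold at 7 d, and at Ect2 from 31.5-fold to 56.4-fold. The member near Ntrk3, the gene of the neurotrophin-3 receptor, was intergenic and 348250 bp from the nearest start. It combined 13.1-fold YAP enrichment with one of the larger steps in TEAD, from 5.25-fold at 3 d to 38.2-fold at 7 d. The member in an intron of Ldb3, a Z-disc protein gene, had 12.9-fold YAP enrichment and lay nearest to the start of 9230112D13Rik. At the weak end, members near Tex2, Rhpn2 and Gm725 had YAP enrichment of 3.53-fold, 3.82-fold and 3.66-fold, against TEAD enrichment of 14.1-fold, 17.4-fold and 22.2-fold at 7 d.

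YAP and TEAD summits nearly coincided within members. Members and pre-bound sites were both chosen for overlap with a TEAD 7 d peak, so close summits are partly set by the selection. The median distance between them was 33.5 bp, against 33.0 bp at pre-bound sites, and 554 of 628 members (88.2%, 85.5% to 90.5%) had summits within 100 bp of each other. Every member overlapped exactly 1 TEAD peak at 7 d, and 6 members shared that peak with another member. The label was also checked from the TEAD side. For 8 members (1.27%), the TEAD 7 d peak under the YAP peak extended far enough to reach a WT TEAD peak elsewhere. The median distance from a member to the nearest WT TEAD peak was 84980 bp, and 18 members (2.87%) had one within 1000 bp. The members nearest to a WT TEAD peak lay 78 bp, 81 bp and 121 bp away, at Cpsf6, Jak2 and Ptprg, with 4.45-fold, 9.56-fold and 4.58-fold YAP enrichment. Just outside the set, YAP peaks near Trim41, Csrnp1 and Hivep2 overlapped a WT TEAD peak by 17 bp, 150 bp and 177 bp, with 7.69-fold, 3.56-fold and 5.24-fold YAP enrichment. The smallest overlaps with a TEAD 7 d peak among members were 227 bp at Bphl and 238 bp at Egfl7 and Slc25a13. The lowest summit pileup was 24 in the WT TEAD list and 16 in the 7 d list, and the peak caller used a longer fragment length for the former. All 628 members had a TEAD 7 d pileup at or above 24. The TEAD 7 d peaks took part in the selection, and pileups from different fragment lengths are not on one scale. These pileups do not show whether TEAD was present but uncalled in WT livers.

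When TEAD arrived at these sites was read from the 3 d lists, which the selection had not used. Members and pre-bound sites were split by the TEAD peaks of WT livers, however. The 3 d TEAD contrast between these classes is therefore partly set by the selection. Of the 628 members, 527 already had a TEAD peak at 3 d (83.9%, 80.8% to 86.6%), whereas 89.6% of all 1478 YAP peaks did. The share was 99.7% at pre-bound sites (difference −15.8 points, −18.9 to −13.1) and 66.3% at gained TEAD peaks without YAP (difference 17.7 points, 14.5 to 20.4). The direction turned when the latter were limited to the 1043 with a TEAD fold of at least 19.6, the first quartile of members, of which 87.1% had a TEAD peak at 3 d (difference −3.14 points, −6.76 to 0.3004). These stronger gained peaks were still weaker than members at 7 d, with a median TEAD fold of 23.3 and an upper quartile of 27.3 against 26.6 and 36.1. YAP itself had not been detected at any member at 3 d: 0 of 628 overlapped a YAP 3 d peak, which allows a share of up to 0.478% by a floor of 3 counts and 0.608% by the Wilson interval, against 6.16% of all YAP peaks at 7 d and 11 of 731 pre-bound sites (1.505%). The 6.16% also counts the 104 sites where YAP was already called without induction. Such sites were kept out of members by the selection, and they are not among the pre-bound sites either. The contrast with all YAP peaks is therefore partly set by the selection, and pre-bound sites are the closer comparison. The YAP 3 d list held 110 peaks in total, fewer than the 156 of the YAP WT list, while the TEAD 3 d list held 36446. With so few YAP peaks called at 3 d, the order in which TEAD and YAP arrived cannot be read from these lists.

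The early TEAD signal at members was moderate and grew further. Among the 527 members with both peaks, the median TEAD fold was 10.8 at 3 d, and the median of the ratio of 7 d to 3 d fold was 2.38, with quartiles of 1.76 and 3.46. At pre-bound sites the median ratio was 1.51, and over all 27753 TEAD 7 d peaks with a 3 d peak it was 1.33. Fold enrichment was higher at 7 d in 524 of 527 members and in 690 of 729 pre-bound sites. Because the lists differ in depth and overall strength, each peak was also ranked within its own list. Its percentile was higher at 7 d than at 3 d in 445 of 527 members (84.4%) and in 342 of 729 pre-bound sites (46.9%). In the TEAD 3 d list, 223 of 628 members (35.5%, 31.9% to 39.3%) lay in the top 10% by fold, against 659 of 731 pre-bound sites (90.2%), a difference of −54.6 points (−58.8 to −50.1). Since TEAD 7 d values took part in the selection, the 7 d side of these ratios is a description. The 3 d contrasts with pre-bound sites are partly set by the split on WT TEAD peaks. Pre-bound sites already had a median percentile of 97.7 in the TEAD 3 d list, which left little room to rise. Across members, TEAD fold at 7 d and at 3 d had a Spearman correlation of 0.540 (n = 527) and YAP and TEAD fold at 7 d one of 0.466 (n = 628). The points share libraries and the background track.

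**Figure D1:**
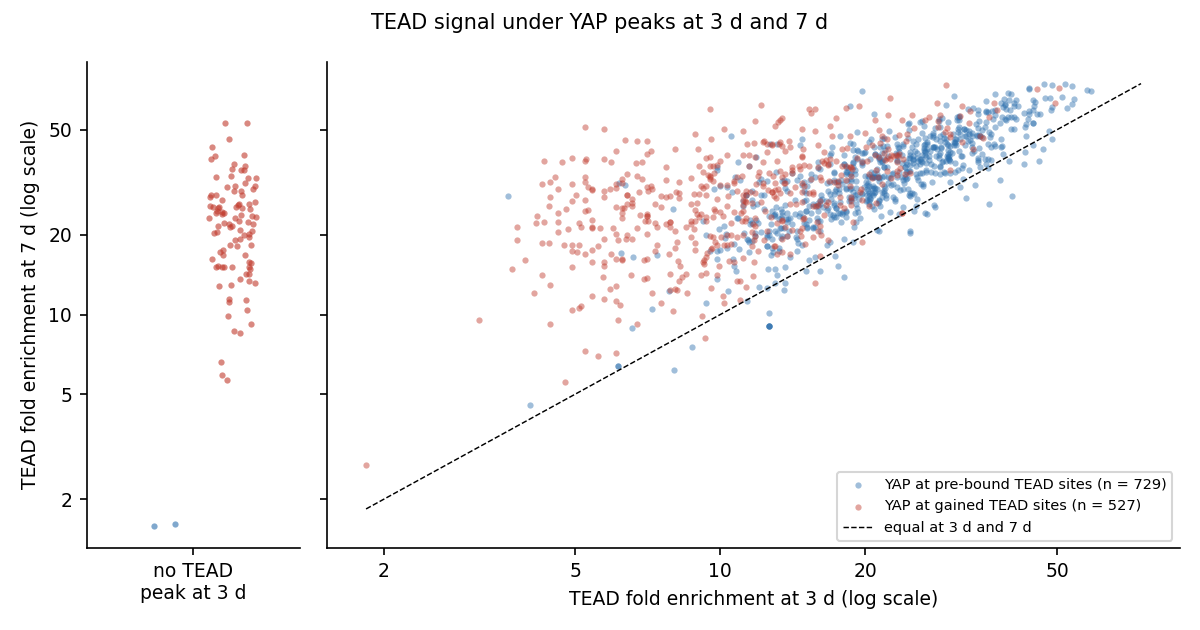
TEAD fold enrichment at 7 d against that at 3 d (both axes log scale), 1 point per YAP 7 d peak, with peaks that had no TEAD peak at 3 d in the left panel, where the horizontal scatter carries no value. The 527 members with both peaks (red) spread from the main diagonal of the 729 pre-bound sites (blue) towards low 3 d values at the same 7 d level, and 101 members and 2 pre-bound sites fall in the left panel.

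The 101 members without a TEAD peak at 3 d were weaker than the rest at 7 d, with a median TEAD fold of 22.4 against 28.3, while median YAP fold was 5.51 against 5.72. The strongest was an intergenic site 79939 bp from the start of Mtnr1b, a melatonin receptor gene, with 9.15-fold YAP and 23.2-fold TEAD enrichment at 7 d. An intergenic site near Tbc1d2b followed with 8.51-fold YAP and 35.1-fold TEAD enrichment. The third lay in an intron of the noncoding gene 2610035D17Rik, 289783 bp downstream of Sox9, which encodes a transcription factor of biliary and progenitor cells. It had 8.08-fold YAP and 33.5-fold TEAD enrichment at chr11:112935626-112936009. The next members in rank lay near Gng2, a G protein gamma subunit gene, and in Frmpd1, with YAP enrichment of 7.86-fold and 7.52-fold.

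The TEAD core was then sought within 200 bp centred on the YAP summit. GGAATG on either strand occurred in 371 of 628 members (59.1%, 55.2% to 62.9%), against 10.8% of all 12778424 tiles of 200 bp in the genome. Pre-bound sites held it in 65.7% of cases, 6.59 points more often (1.43 to 11.7). Around the summits of gained TEAD peaks without YAP the share was 31.9%, 27.1 points below members (23.2 to 30.9). The gap was smaller for the 1043 stronger gained peaks without YAP, which held the core in 56.3% of windows. This was 2.80 points below members (interval of the difference −2.11 to 7.64). Gained peaks were centred on TEAD summits and members on YAP summits, here and in the word comparisons below. Around the summits of their TEAD 7 d peaks, members held the core in 64.6% of windows, 32.7 points above all gained peaks without YAP. The 1043 stronger peaks were not compared with members on that centring. Cores were concentrated at the YAP summit, with 29.3 per 100 members in the 50 bp before it and 26.8 in the 50 bp after it, against 2.39 to 3.98 in the outermost 100 bp on either side of 2000 bp. When members were divided by YAP fold into 4 groups of 157, the core was present, from the lowest to the highest group, in 49.7%, 56.7%, 66.9% and 63.1%. A reversed core, GTAAGG, used as a control word, occurred in 5.89% of members and 6.37% of tiles.

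**Figure D2:**
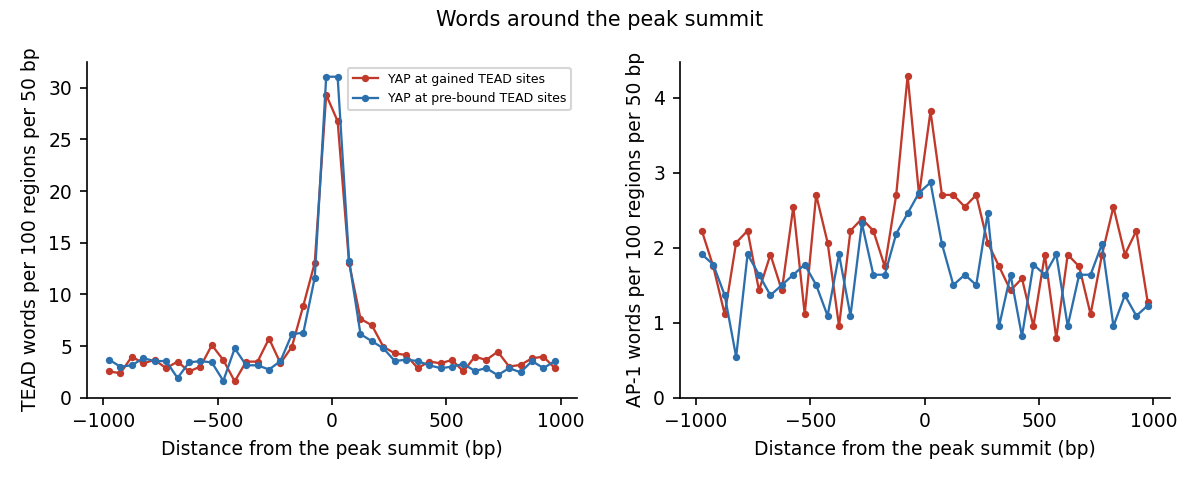
Number of TEAD cores (left) and AP-1 words (right) per 100 regions in bins of 50 bp, plotted against distance from the YAP summit, for members (red) and pre-bound sites (blue). TEAD cores peak at the summit in both classes, at 29.3 per 100 members in the bin before it, while AP-1 words reach at most 4.30 per 100 members in any bin.

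Among 6-base words, those most over-represented in members relative to genome tiles were the core itself as CATTCC (5.46 times the share in tiles), then ACATTC (4.49 times), then GAATGC (4.32 times) and then AGGAAT (3.72 times), all of which overlap the TEAD core. GAATTC came next, in 127 members (20.2%) against 5.46% of tiles, 14.4% of pre-bound sites and 10.1% of gained TEAD peaks without YAP. Members exceeded pre-bound sites by 5.86 points for this word (1.84 to 9.93). Of the other words among the 10 highest, 3 overlapped the core, and the remaining pair, CCGCGA and the palindrome GTCGAC, each occurred in 5 members. Of the 257 members that lacked GGAATG, 126 (49.0%) held the variant GGAATT and 153 (59.5%) held GGAAT followed by any base. In total 524 members (83.4%, 80.3% to 86.1%) carried GGAAT within 100 bp of the summit, as did 86.9% of pre-bound sites and 59.5% of gained TEAD peaks without YAP.

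Paired cores were then compared by their arrangement, a comparison chosen after the data had been seen. Members with at least 2 GGAATG cores numbered 109 (17.4%), close to the 16.8% of pre-bound sites and above the 4.16% of gained TEAD peaks without YAP. Pairs of GGAAT on the same strand were counted by pitch, the number of bases from the start of one core to that of the other. A pitch of 9 bases, written GGAATNNNNGGAAT, occurred in 48 members (7.64%, 5.81% to 9.99%). Every other pitch from 5 to 40 bases occurred in at most 9 members, with a median of 3 members. The same pair was present in 27 pre-bound sites (3.69%), in 213 gained TEAD peaks without YAP (0.649%) and in 0.0467% of genome tiles. Members exceeded pre-bound sites by 3.95 points (1.501 to 6.56) and gained TEAD peaks without YAP by 6.99 points (5.16 to 9.34). Against the 1043 stronger gained peaks without YAP, of which 31 (2.97%) held the pair, the difference was 4.67 points (2.47 to 7.17). The stronger gained peaks had a lower TEAD fold than members, and members with the pair had a higher one than the rest, so pair and TEAD strength were not separated by this comparison. With the stricter 6-base core, 17 members (2.71%) and 13 pre-bound sites (1.78%) held pairs 3 bases apart, a difference of 0.929 points (−0.671 to 2.68).

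**Figure D3:**
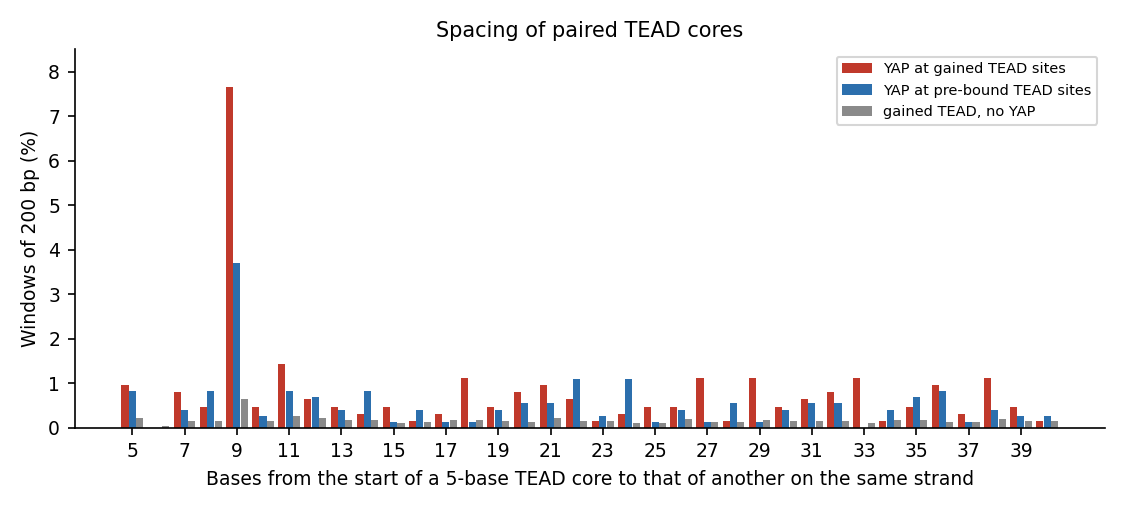
Share of 200 bp windows (y axis, percent) that hold a pair of 5-base TEAD cores on the same strand at each pitch in bases (x axis), for members (red), pre-bound sites (blue) and gained TEAD peaks without YAP (grey). The pitch of 9 bases stands above all others at 7.64% of members, 3.69% of pre-bound sites and 0.649% of gained TEAD peaks without YAP.

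The pair was more frequent at higher YAP fold in members and at pre-bound sites. In the same 4 groups of members, from lowest to highest YAP fold, it was found in 4, 7, 13 and 24 of 157 members, or 2.55%, 4.46%, 8.28% and 15.3%. Of the 100 members with the highest −log10 p-values, 22 held it (22.0%, 15.0% to 31.1%). Pre-bound sites divided in the same way showed the pair in 1.09% of the lowest and 8.74% of the highest group. Members with the pair had a median YAP fold of 6.88 and a median TEAD fold of 35.4 at 7 d, against 5.68 and 26.2 for the 580 members without it. Their YAP and TEAD summits lay a median of 21.0 bp apart, against 35.5 bp without the pair. The pair was seen in 30 of 287 intergenic members (10.5%), 12 of 275 in gene bodies (4.36%) and 6 of 66 at promoters (9.09%). Ncald, Mrpl36 and Speer2, ranked 6, 10 and 11 among all YAP peaks, led these 48 members, followed by Trim24, Gm10295 and Gm9747. The Trim24 member, 140090 bp upstream of a gene for a transcriptional coregulator, had 12.4-fold YAP and 53.0-fold TEAD enrichment. The members near Gm10295 and Gm9747 had 71.6-fold and 71.4-fold TEAD enrichment, close to the highest value of the set, 73.5-fold.

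Some of these windows resembled each other beyond the cores. No repeat annotation was used here, so shared words and paired cores that lie in copies of a repeat cannot be told apart from others. The 12-base word in the largest number of members, simple repeats aside, was ATTCCTGGAATG, in 13 members (2.07%), 3 pre-bound sites (0.410%) and 48 gained TEAD peaks without YAP (0.146%). At least 1 word of 20 bases was shared with another member by 41 members (6.53%, 4.85% to 8.74%), and 25 of 731 pre-bound sites (3.42%) shared one with another pre-bound site. With all regions that shared such a word left out, the excess of the 9-base pair in members over pre-bound sites was 3.61 points (1.17 to 6.25). Regions that share only shorter words, as diverged copies of a repeat would, remain in this count.

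**Figure D4:**
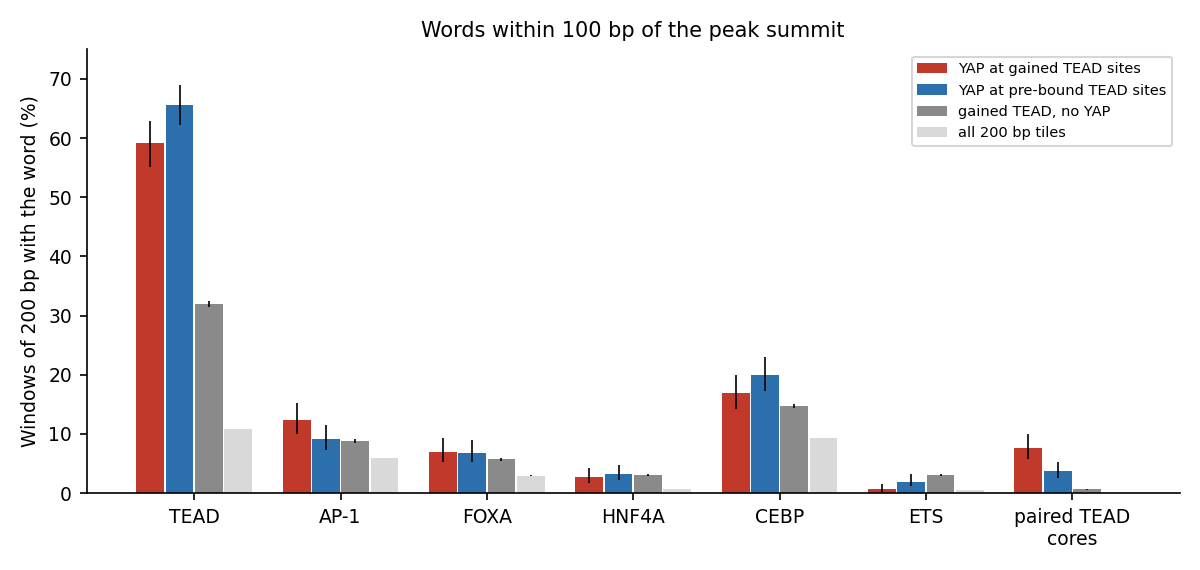
Share of 200 bp windows around the summit that hold each word (y axis, percent, error bars 95% Wilson intervals), for members (red), pre-bound sites (blue), gained TEAD peaks without YAP (dark grey) and all genome tiles (light grey). The TEAD core was found in 59.1% of members against 10.8% of tiles, and the paired cores in 7.64% against 0.0467%.

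AP-1 words were less frequent than TEAD cores. TGANTCA was present in 78 members (12.4%, 10.1% to 15.2%), 9.17% of pre-bound sites, 8.85% of gained TEAD peaks without YAP and 5.93% of tiles. The excess over pre-bound sites was 3.26 points (−0.0431 to 6.64) and that over gained TEAD peaks without YAP 3.57 points (1.20 to 6.40). Against the 1043 stronger gained peaks, of which 12.8% held the word, the difference was −0.331 points (−3.53 to 3.06), and its interval included 0. Late and early members were compared for AP-1 words after the data had been seen: 23 of the 101 without a TEAD 3 d peak held one (22.8%, 15.7% to 31.9%) against 55 of the 527 with it (10.4%, 8.11% to 13.3%), a difference of −12.3 points for members with a 3 d peak (−21.7 to −4.67). The TEAD core itself was found in 61.4% of late and 58.6% of early members. A difference of the same sign was present at gained TEAD peaks without YAP, where the AP-1 word occurred in 11.1% of those without and 7.70% of those with a TEAD 3 d peak (−3.41 points, −4.10 to −2.73). In windows of 100 bp the difference among members was −2.42 points (−9.55 to 2.06). Late members that carried the word included those at Ptprd, Tmprss2 and Arl4c shown above.

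Words for liver factors differed between members and pre-bound sites by less than the counting error. The CEBP word TTGCNNAA occurred in 16.9% of members and 19.97% of pre-bound sites (difference −3.09 points, −7.19 to 1.06), and the FOXA word TGTTTAC in 7.01% and 6.84% (0.166 points, −2.54 to 2.95). CAAAGTCC, the word for HNF4A, the master regulator of hepatocytes, occurred in 17 members (2.71%) and 3.28% of pre-bound sites, a difference of −0.576 points (−2.43 to 1.34). Each of these shares was above that of genome tiles, 9.35%, 2.98% and 0.758%. The GC-rich ETS word CCGGAAG was found in 4 members (0.637%) against 1.92% of pre-bound sites and 3.08% of gained TEAD peaks without YAP (−2.44 points, −2.87 to −1.44). HNF1 (GTTAATNAT), RUNX (TGTGGTT), SOX (ACAAAG) and NF-kB (GGANTTTCC) words occurred in 0.955%, 4.46%, 17.4% and 1.43% of members, and the intervals of all differences from the other site classes included 0.

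Members were distal sites. Promoters, here 2000 bp before and 1000 bp after any annotated start, held 66 members (10.5%, 8.35% to 13.2%), against 23.8% of pre-bound sites (difference −13.3 points, −17.2 to −9.34) and 28.4% of gained TEAD peaks without YAP (−17.9 points, −20.2 to −15.3). Against the stronger gained peaks, 12.4% of which lay at promoters, the difference was −1.86 points (−4.90 to 1.37). Gene bodies held 275 members (43.8%) and intergenic sequence 287 (45.7%), the latter 11.0 points above pre-bound sites (5.73 to 16.1). By summit, 299 members lay in introns, 306 outside genes, 16 in exons and 7 in UTRs. The median distance from a summit to the nearest protein-coding start was 23650 bp in members and 13110 bp at pre-bound sites, and 99 members (15.8%) were more than 100000 bp away. Promoter members included Dpp4, which encodes a cell-surface dipeptidyl peptidase, at 10.8-fold YAP enrichment, Lrtm2 at 11.8-fold and 2900073G15Rik at 10.8-fold.

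Each member was assigned to the protein-coding gene with the nearest start, which does not show that the gene is regulated from the site. The 628 members named 594 genes, 2.67% of the 22208 annotated. One member was assigned to each of 561 genes, 2 members to each of 32 and 3 members to Amotl2. Of the 594 genes, 62 were also nearest to a pre-bound YAP peak. Genes with large intergenic neighbourhoods are named more readily by this assignment, so the list counts below are descriptions.

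Among 26 canonical YAP targets, 5 were nearest to a member (19.2%): Amotl2, Asap1, F3, Crim1 and Tgfb2. Ctgf, Myof, Gadd45b, Ptpn14 and Nuak2 of this list had a pre-bound YAP peak nearby and no member. The member 12814 bp downstream of the start of F3, the tissue factor gene, had 6.36-fold YAP enrichment, and TEAD enrichment went from 8.04-fold at 3 d to 12.5-fold at 7 d. That in Crim1, which encodes a membrane-bound BMP regulator, had 6.11-fold YAP and 19.8-fold TEAD enrichment at 7 d. The Asap1 member lay 88864 bp upstream of this Arf GTPase-activating protein gene and held both a TEAD core and an AP-1 word. Of 31 Hippo pathway and TEAD partner genes, 4 were named (12.9%): Amotl2, Wwc2, Vgll4 and Frmd6. Wwc2, a KIBRA family gene, had 2 intragenic members with 5.03-fold and 5.02-fold YAP enrichment. Vgll4, whose product competes with YAP for TEAD, had a member 1667 bp downstream of a start with 5.30-fold YAP and 21.5-fold TEAD enrichment, besides 3 pre-bound sites. Frmd6 had a late member 112929 bp upstream with 2 TEAD cores and an AP-1 word.

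Amotl2 encodes a scaffold of the angiomotin family that retains YAP in the cytoplasm, and it is itself a known YAP target. Within 60 kb of its first annotated start on chromosome 9, the YAP 7 d list held 6 peaks, 3 members and 3 pre-bound, and neither the WT nor the 3 d YAP list held any. TEAD peaks in the same window numbered 5 without the transgene, 13 after 3 days and 19 after 7 days. The strongest member lay 47047 bp downstream of that start, at chr9:102665817-102666239, with 10.05-fold YAP enrichment, and TEAD enrichment of 23.8-fold at 3 d and 54.4-fold at 7 d. A promoter member 813 bp upstream had 5.08-fold YAP enrichment, with TEAD at 10.7-fold and 31.4-fold. The third, 17620 bp downstream, had 5.46-fold YAP enrichment, and the summit of its TEAD peak lay 1802 bp away, under a pre-bound YAP peak. The TEAD 7 d peaks under the 47047 bp and 17620 bp members were both broad enough to reach a WT TEAD peak, so these count among the 8 exceptions to the label given above. The pre-bound site at 1067 bp had YAP enrichment of 10.7-fold and TEAD enrichment of 23.4-fold without induction, which was 48.6-fold after 3 d and 59.6-fold after 7 d.

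**Figure D5:**
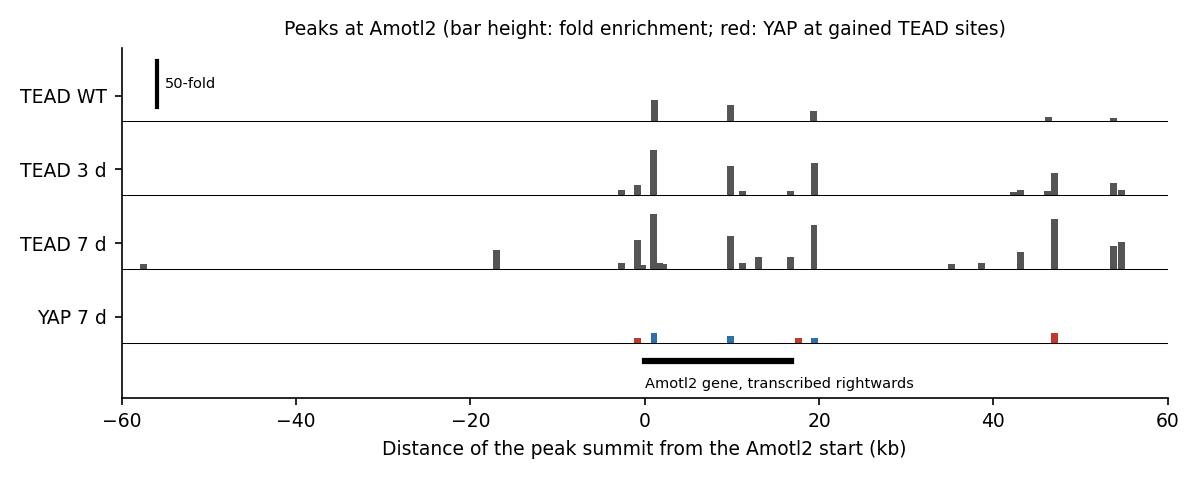
Called peaks within 60 kb of the first Amotl2 start, drawn at the distance of their summit from it (x axis, kb) with bar height as fold enrichment (scale bar 50-fold), for the WT, 3 d and 7 d TEAD lists and the 7 d YAP list. The 3 red bars are members at −813 bp, 17620 bp and 47047 bp, the blue bars are pre-bound YAP peaks, and the black bar is the gene.

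Biliary and progenitor markers had 4 of 29 genes named (13.8%): Sox9, Krt8, Bicc1 and Pkhd1. Of these 29 genes, 7 were nearest to a pre-bound YAP peak, 1 of them also to a member. Bicc1, an RNA-binding protein gene linked to cystic disease, had a member 23643 bp upstream with 6.55-fold YAP enrichment and one 2978 bp into the gene with 5.02-fold. Their TEAD enrichment went from 13.6-fold and 10.7-fold at 3 d to 41.7-fold and 32.0-fold at 7 d. The Krt8 member, 9536 bp upstream of this simple-epithelium keratin gene, had 4.37-fold YAP and 29.0-fold TEAD enrichment. None of 39 genes of hepatocyte identity and function was nearest to a member, at a background of 2.67% of genes. With a background this low, a list of 39 genes is too short to show avoidance by members. Pre-bound YAP peaks were nearest to 7 of them, Alb, Apob, Arg1, Cps1, G6pc, Nr1h4 and Pck1. Genes nearest to a pre-bound peak numbered 6 among canonical YAP targets, 7 among Hippo pathway genes and 7 among growth factors and receptors. They numbered 4 among cell cycle genes, 5 among AP-1 and stress factors, 3 among inflammation genes and 8 among cytoskeleton genes. The share of all genes nearest to a pre-bound peak was not computed, so whether these counts are high was not tested.

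Growth factors and receptors had 7 of 44 genes named (15.9%). Bmp4, a secreted BMP ligand, had one of the strongest TEAD signals among listed genes, 37.6-fold at 3 d and 59.6-fold at 7 d, at an intergenic site 126791 bp upstream with 3 TEAD cores and 7.86-fold YAP enrichment. Egfr, the EGF receptor gene, had a member 68432 bp upstream with 7.76-fold YAP enrichment and TEAD at 31.8-fold and 44.98-fold. Its family member Erbb4 had 2 members, with 7.21-fold and 6.77-fold. The intragenic member of Met, the HGF receptor gene, was one of the 3 members whose TEAD enrichment was not higher at 7 d, with 19.7-fold at 3 d and 18.8-fold at 7 d. Vegfa and Nrp1, an angiogenic ligand and its coreceptor, had members with 5.25-fold and 4.57-fold YAP enrichment.

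Cell cycle and survival genes had 5 of 30 named (16.7%). Ccnd1, the cyclin D1 gene, had intergenic members 105722 bp and 129555 bp upstream, with 6.16-fold and 5.46-fold YAP enrichment, and the farther one had no TEAD peak at 3 d. Cdk6, a partner kinase of cyclin D, had a member 44593 bp upstream with 5.51-fold YAP and 31.3-fold TEAD enrichment. The member of Birc3, an inhibitor of apoptosis, carried TEAD at 30.0-fold at 3 d and 35.1-fold at 7 d. Mki67 and Bcl2 had members of 4.98-fold and 4.68-fold. AP-1 and stress factors had 2 of 23 named (8.70%), Fos and Myc, and the members of both carried the 9-base pair. The Fos member lay 5211 bp downstream of the start, with 7.86-fold YAP enrichment and TEAD at 7.06-fold at 3 d and 40.5-fold at 7 d. The member nearest to Myc was 470597 bp away, with 5.66-fold YAP enrichment.

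Inflammation genes had 3 of 35 named (8.57%). Tnfaip3, a feedback inhibitor of NF-kB, had a promoter member 670 bp downstream of the start with 9.82-fold YAP enrichment, and TEAD at 15.4-fold at 3 d and 57.7-fold at 7 d. Lif, an interleukin-6 family cytokine gene, had a member 32377 bp downstream with 8.33-fold YAP enrichment, the 9-base pair and an AP-1 word. Cx3cl1, a chemokine gene, had a late member with 6.23-fold YAP enrichment and 2 AP-1 words. Of 55 genes of the cytoskeleton, adhesion and motility, 5 were named (9.09%). Lamc1, a laminin subunit gene, had 2 members with 6.92-fold and 5.68-fold YAP enrichment, and Cdh2, the N-cadherin gene, an intronic one with 6.99-fold. The members of Tpm1 and Cald1, which encode actin-binding proteins, had 5.02-fold and 4.15-fold.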

How the data were processed

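YAP and TEAD ChIP-seq of 19 liver samples was analysed from 6 peak lists in mm9, grouped by the labels. Per the submitters' processing notes and the study's methods, the authors aligned reads with BWA 0.6.2, merged the replicates, removed duplicates (SAMtools is also named) and called peaks with MACS2 2.0.9 against 1 control of 167176362 tags, at a p-value cutoff of 1e-05 per the file headers. The deposited pileup is a signal, the fragments over the summit. The deposited fold enrichment is the ratio of pileup to local background. The −log10 p-value and −log10 q-value were deposited by the authors too; the q-values were not used. The study states that the TEAD4 antibody was used. It adds that binding of this antibody to TEAD1 and TEAD3 has been reported, so TEAD peaks are not assigned to a single TEAD factor. It also states that the input and the peaks of WT liver came from earlier published data. The WT lists used here are those of the WT samples. Tags per merged library were 34260362 to 55032002.

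Peaks were intersected at a minimum of 1 bp. Annotation was GENCODE for NCBIM37, and sequence was read from that genome, which is mm9; no peak ran past a chromosome end. Windows were 200 bp around YAP summits, or TEAD summits for gained TEAD peaks, and words were searched on both strands; tiles covered the numbered chromosomes and X, leaving out tiles with unknown bases. Shares carry 95% Wilson and differences 95% Newcombe intervals; floors are 3 counts. Named members were the 8 highest and 3 lowest by −log10 p-value, the 5 highest without a TEAD 3 d peak, the 5 highest at promoters, genes with at least 3 members, members of the gene lists and those nearest the thresholds. The members and gene lists were chosen with earlier results of these data known. The counts of GGAAT pairs by pitch, of variant cores, of shared 12-base and 20-base words, the comparison of pairs, promoters and TEAD 3 d peaks with gained peaks of higher TEAD fold, and the AP-1 comparison of late and early members with all its versions were added after the data had been seen. Functions were tested on simulated data with Python 3.11, numpy 2.4.6, pandas 2.3.3 and scipy 1.17.1. Alternatives are given in the closing section. One gene of the cytoskeleton list is counted but not reported here.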

Additional observations from a re-analysis of the deposited data

How the results depend on the processing

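With 1 merged list per group, neither animals nor libraries could be left out. No paired analysis was possible because replicates were merged before peaks were called. In all, 89 alternative values were computed for 16 results, 15 of them chosen after seeing the data, and 73 kept their direction and their side of 0, or stayed within the interval, the quartiles or 1.5 times the count. The number of members ranged from 485 (−log10 p of at least 10) to 633 (400 bp windows around summits). Those windows also gave 0.790% of members a YAP 3 d peak. Promoters of 1000 bp on either side left 7.17% of members at promoters. The TEAD core share was 43.1% in 100 bp and 68.8% in 400 bp, and the AP-1 share 5.89% in 100 bp and 20.4% in 400 bp. With the window kept at 200 bp, the TEAD core share was 53.8% with a 7-base core and 64.6% around TEAD summits. The deficit of TEAD cores against pre-bound sites had an interval that included 0 at −log10 p of at least 10 (−5.70 points) and with no WT peak within 1000 bp (−4.92 points). The AP-1 excess over pre-bound sites had an interval above 0 at −log10 p of at least 10 (3.70 points) and in 400 bp (5.33 points). Against gained TEAD peaks without YAP, a 100 bp window gave an AP-1 excess of 1.00 points. Gained peaks with a TEAD fold of at least 19.6 gave 2.80 points for the TEAD core and −0.331 points for AP-1, the 1 reversal among the 89 values. The share with a TEAD 3 d peak also turned direction against these peaks (−3.14 points), but that comparison was not among the 89. The late AP-1 difference was −2.42 points in 100 bp. The cause of these shifts was not tested where no value is given.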

Other observations

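Members were spread over every numbered chromosome and X. Their density was 16.8 to 37.5 per 100 Mb on the numbered chromosomes, lowest on chromosome 17 and highest on chromosome 19, and 5.40 per 100 Mb on X, where 9 members and 5 pre-bound sites lay. Of the members, 59 (9.39%) had another member within 50000 bp and 47 (7.48%) a pre-bound YAP peak. The shares for sites placed at random were not computed, so these values do not show whether members were clustered or dispersed. The base composition of members was lower in GC than that of pre-bound sites, with medians of 46.0% and 48.5% in 200 bp. Neither GGAAT nor an AP-1 word was found within 100 bp of the summit in 94 members (15.0%, 12.4% to 17.97%) and in 12.04% of pre-bound sites.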
